A study of Saccharomyces cerevisiae with 6 samples.

Results

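Spacers between convergent genes are the stretches of DNA that separate 2 neighbouring genes pointing at each other, so that both genes end at the spacer. They were taken from the R64 annotation of the budding yeast genome as the intervals between adjacent, non-overlapping nuclear protein-coding genes with the left gene on the plus strand and the right gene on the minus strand. Of the 5868 spacers between the 6002 nuclear genes, 1513 were convergent, 1527 lay between genes that start next to each other (divergent) and 2828 between genes that run in the same direction (tandem). A further 23 convergent neighbours overlapped and gave no spacer. The boundaries are those of the coding sequences, so a convergent spacer includes the 3′ untranslated regions of both neighbours and the sites where both transcripts end.

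The study mapped contacts between chromatin and nuclear pore complexes (NPCs) by Nic96 ChIP-seq, in 6 libraries with 1 library per condition. All strains were BY4742 derivatives (MATalpha, with his3delta1, leu2delta0, lys2delta0 and ura3delta0) that carried the plasmid pRS313, and chromatin was precipitated with a monoclonal antibody to the Myc tag. Both lists used here come from cells shifted from 25 °C to 37 °C for 15 min. The wt list compares a strain with Nic96-13myc-KanMX with an untagged wt strain. The tho list compares a Nic96-13myc-KanMX mft1::NatMX strain, which lacks the Mft1 subunit of the THO complex, with an untagged mft1::KanMX strain. The untagged strain of each list therefore served as the background, and the 25 °C libraries were not analysed here. The files hold peaks and no reads, so the depth is unknown and the deletion of MFT1 could not be checked in them. With 1 library per condition there is no replicate check, and no test was made between wt and tho.

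Nic96 belongs to the scaffold of the pore, in its inner ring, and DNA crosslinked with it marks chromatin in contact with the NPC. Between convergent genes, RNA polymerase II arrives from both sides, and the transcripts are cleaved, polyadenylated and terminated there. Such intergenic regions are known in yeast as places where cohesin accumulates, and unlike divergent and tandem spacers they lack promoters of protein-coding genes. The THO complex coats nascent transcripts and limits R-loops, the hybrids of nascent RNA with its DNA template.

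Among the spacers met by a peak, the shortest was the one between NAS6, a proteasome assembly chaperone, and PHO81, an inhibitor of the phosphate-responsive kinase. It is 27 bp long, while the shortest of all convergent spacers has 2 bp, and is shown with the stop codons of both genes in capitals. A tho peak with a fold enrichment of 1.60 covered it, and no wt peak met it. The other sequences are tRNA genes, transcribed by RNA polymerase III, that lie within convergent spacers and held the summit of a wt peak. Their capitals mark the B-box-like motif GTTCNANNC, which belongs to the internal promoter of tRNA genes. Sequences are from the RefSeq R64 assembly, 5′ to 3′ on the plus strand for the spacer and on the transcribed strand for the tRNA genes.
NAS6–PHO81 spacer with both stop codons, chrVII:954644-954676: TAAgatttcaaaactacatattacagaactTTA
tRNA-Ile YNCP0020W, RRP15–NOC4 spacer, chrXVI:819529-819602, plus strand: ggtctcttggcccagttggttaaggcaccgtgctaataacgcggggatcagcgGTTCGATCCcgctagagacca
tRNA-Gly YNCG0039W, RBG2–CBP4 spacer, chrVII:845649-845719, plus strand: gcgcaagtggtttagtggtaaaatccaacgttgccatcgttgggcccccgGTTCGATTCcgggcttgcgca
tRNA-Ser YNCJ0023C, TAH11–ANB1 spacer, chrX:524012-524093, minus strand: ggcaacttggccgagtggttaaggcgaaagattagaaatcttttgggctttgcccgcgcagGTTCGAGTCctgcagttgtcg
tRNA-Asp YNCL0040W, MID2–RPS25B spacer, chrXII:793918-793989, plus strand: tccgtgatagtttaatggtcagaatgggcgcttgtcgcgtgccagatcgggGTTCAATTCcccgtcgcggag

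Convergent spacers were short and poor in G and C. Their median length was 231 bp (quartiles 141 and 353 bp, range 2 to 8042 bp), against 511 bp for divergent spacers, and tandem spacers lay in between. Their median GC content was 29.1%, against 36.1% in divergent and 33.9% in tandem spacers. Together they made up 521048 bp, or 4.32% of the nuclear genome, and 1322 of them (87.4%) held no other annotated feature. The hexamer TATATA, known in yeast 3′ ends as an efficiency element, was found on either strand in 386 of the 554 convergent spacers of 200–400 bp (69.7%), against 53.3% of the spacers of all orientations in that length class. For AATAAA, which resembles the positioning element of 3′ ends, the values were 80.0% and 64.3%. The 2 hexamers can share letters where they adjoin, and a match is a description of the sequence only. Sequence that occurs more than once in the genome made up most of 28 convergent spacers, and 55 lay within 20 kb of a chromosome end.

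Convergent spacers were rarely the centre of a Nic96 peak. In wt, 10 of the 993 nuclear peaks with a q-value under 0.05 had their summit in a convergent spacer, or 1.01% (exact binomial 95% interval 0.484 to 1.84%). Uniform placement of the same peaks within their chromosomes would put 43.2 summits there, which gives a ratio of observed to expected of 0.231 (0.111 to 0.423). In tho, 11 of 571 summits fell in convergent spacers, or 1.93% (0.966 to 3.42%), against 24.7 expected, a ratio of 0.445 (0.223 to 0.790). A summit was held by 10 convergent spacers in wt and 11 in tho, while 1.23% of the spacers of all orientations held one in wt and 4.18% in tho. Both ratios were below 1, with intervals, which cover counting of peaks only, that do not reach 1. With the midpoint of each peak in place of its summit, however, the tho ratio was 0.768 (0.465 to 1.19), an interval that includes 1, while the wt ratio was 0.254 (0.127 to 0.453). Without spacers that hold a tRNA gene or a long terminal repeat, the wt ratio was 0.0861 (0.0178 to 0.251), from 3 summits.

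Divergent and tandem spacers had ratios close to that of convergent spacers in wt and ratios above 1 in tho. In wt the ratio was 0.306 (0.202 to 0.442) for divergent and 0.261 (0.184 to 0.359) for tandem spacers, so all orientations were low and their intervals overlapped. In tho it was 1.90 (1.56 to 2.27) for divergent and 1.83 (1.57 to 2.10) for tandem spacers, with 96 and 145 summits. The interval of the convergent spacers in tho did not overlap with either. Coding genes held 897 of the wt summits (ratio 1.25) and 310 of the tho summits (ratio 0.748). The difference between the lists was not tested, since each rests on 1 library.

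**Figure D1:**
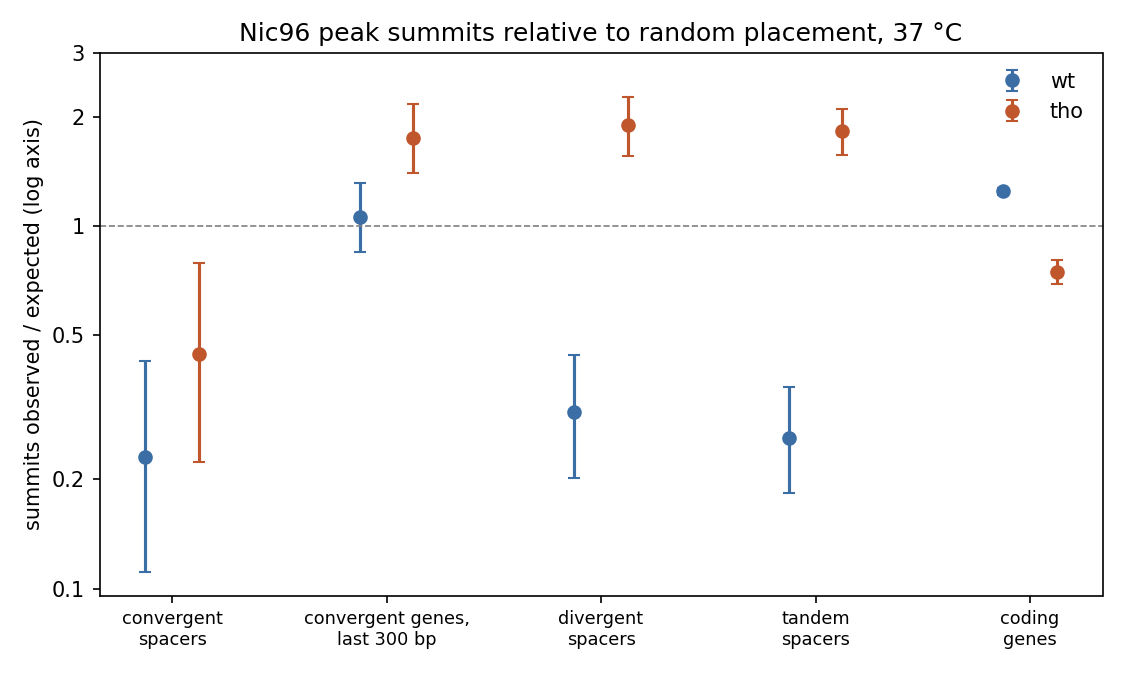
Observed over expected number of Nic96 peak summits (log axis) in the wt list (blue) and the tho list (orange) at 37 °C, by place in the genome; bars are exact binomial 95% intervals over peaks and the dashed line marks uniform placement within chromosomes. Convergent spacers lie below 1 in both lists (0.231 and 0.445), whereas the last 300 bp of the convergent genes lie at 1.06 in wt and 1.75 in tho.

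By overlap, the wt list reached 32 convergent spacers by at least 1 bp, or 2.12% (1.45 to 2.97%), beside 2.45% of the spacers of all orientations. The expected number was 96.6, a ratio of 0.331. The tho list reached 59, or 3.90% (2.98 to 5.0%), beside 7.23% of the spacers of all orientations. Here the expected number was 73.1 and the ratio 0.807 (0.617 to 1.03), an interval that includes 1. In tho, 127 divergent spacers were met against 97.5 expected, and 238 tandem spacers against 166 expected, a ratio of 1.43. Peaks covered 5 of the 1513 convergent spacers from end to end in wt and 22 in tho. The counts were 0 and 17 for the 1527 divergent spacers, and 6 and 46 for the 2828 tandem spacers. Crossing of a whole spacer in tho was thus not particular to convergent spacers. In base pairs, 1.10% of the convergent sequence was covered in wt, where 3.85% of the nuclear genome was, and 2.78% in tho, where 3.36% was. Per base pair, divergent spacers were covered to 4.68% and tandem spacers to 5.14% in tho.

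Longer spacers are met more often by any peak, so the counts were divided into length classes, each including its upper limit. No summit of either list fell in any of the 646 convergent spacers of up to 200 bp, where 1.05 and 5.69 summits were expected for wt and 0.608 and 3.28 for tho in the classes of 1–100 and 100–200 bp. In the 554 spacers of 200–400 bp, wt had 1 summit against 12.5 expected and tho had 0 against 7.18, with an upper bound of 0.512 on the tho ratio. In the 192 spacers of 400–800 bp, wt had 2 against 8.37 and tho had 3 against 4.84. In the 121 spacers over 800 bp, wt had 7 against 15.7 and tho had 8 against 8.84. In tho the interval of the ratio lay below 1 only in the class of 200–400 bp, the counts expected in shorter spacers being small, and above 800 bp the ratio was 0.905 (0.392 to 1.77). At that length divergent spacers had 65 tho summits against 27.9 (2.33, 1.82 to 2.92) and tandem spacers 102 against 37.7 (2.71, 2.25 to 3.22), intervals that do not overlap with that of the convergent spacers. In the class of 400–800 bp, the intervals of the convergent (0.620, 0.128 to 1.80), divergent (1.95) and tandem spacers (1.49) overlapped.

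Overlap also rose with length. In wt, 0 of 186 spacers of 1–100 bp were met (upper bound 1.96%), 0.870% of those of 100–200 bp, 1.44% of 200–400 bp, 4.69% of 400–800 bp and 9.09% of those over 800 bp. In tho, the shares in the same order were 1.61%, 1.52%, 3.79%, 8.33% and 9.92%. Relative to the expected number, wt stayed below 1 in every class, between 0 and 0.598. In tho the ratio was 0.442 and 0.374 in the classes of up to 200 bp, 0.858 at 200–400 bp, 1.45 at 400–800 bp and 0.989 above 800 bp. At 400–800 bp, wt peaks met 0.543% of divergent (0.112 to 1.58%) and 1.18% of tandem spacers (0.591 to 2.10%). The interval of the convergent spacers there, 2.17 to 8.71%, overlapped with neither. In the other length classes the wt intervals of the convergent spacers overlapped with those of both other orientations.

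**Figure D2:**
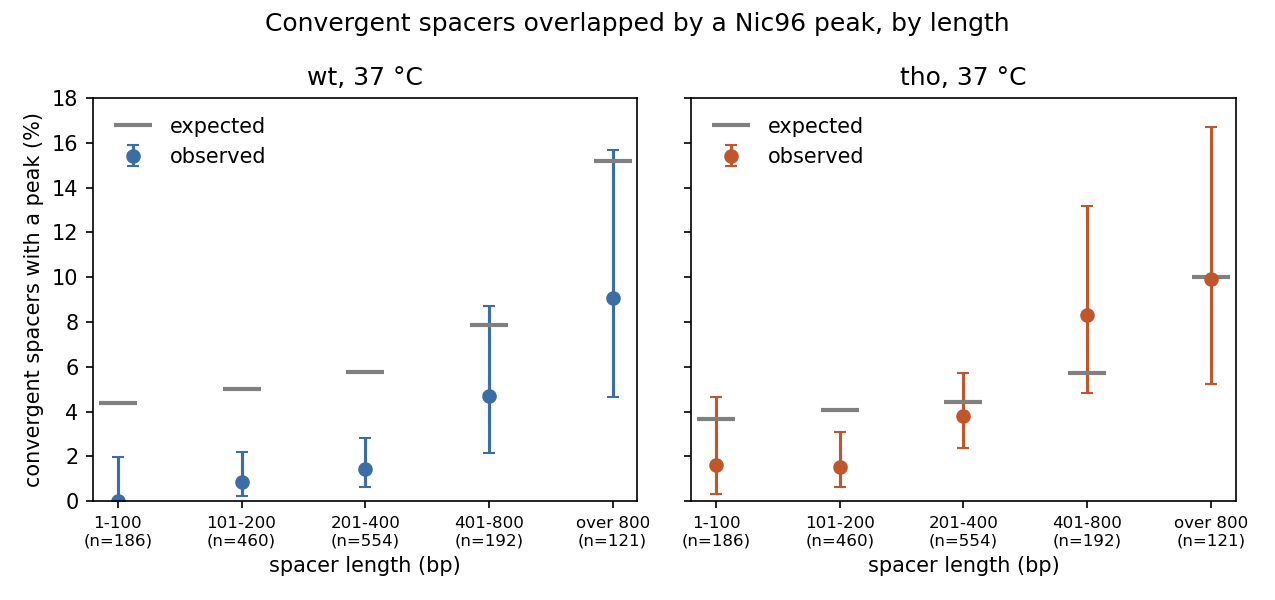
Share of convergent spacers (%) overlapped by a Nic96 peak by at least 1 bp, by spacer length (bp), for wt (left) and tho (right) at 37 °C; points are the observed shares with exact binomial 95% intervals and grey dashes the shares expected under uniform placement. The wt points lie under the expected share in all 5 classes, and the tho points lie under it up to 400 bp, above it at 400–800 bp (8.33%) and close to it beyond (9.92%).

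Peaks that touched a convergent spacer mostly had their summit in the coding sequence beside it. In wt, 23 such peaks had their summit outside the spacer, in all cases in a flanking gene, at a median of 147 bp from the edge of the spacer (35 to 807 bp). In tho, 52 such peaks made 53 pairs of peak and spacer, and in 48 pairs the summit lay in a flanking gene, at a median of 128 bp over all pairs, with 41 pairs within 300 bp. These tho peaks were wide, with a median of 1180 bp, and 30 of them (57.7%) exceeded 1000 bp, against 10.4% of the tho peaks that touched no convergent spacer. A wide peak meets more spacers by construction, and the part of this in the difference was not tested. The wt peaks of the same kind had a median width of 425 bp. Their median fold enrichment at the summit, tagged over untagged, was 1.86 in wt and 2.70 in tho.

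**Figure D3:**
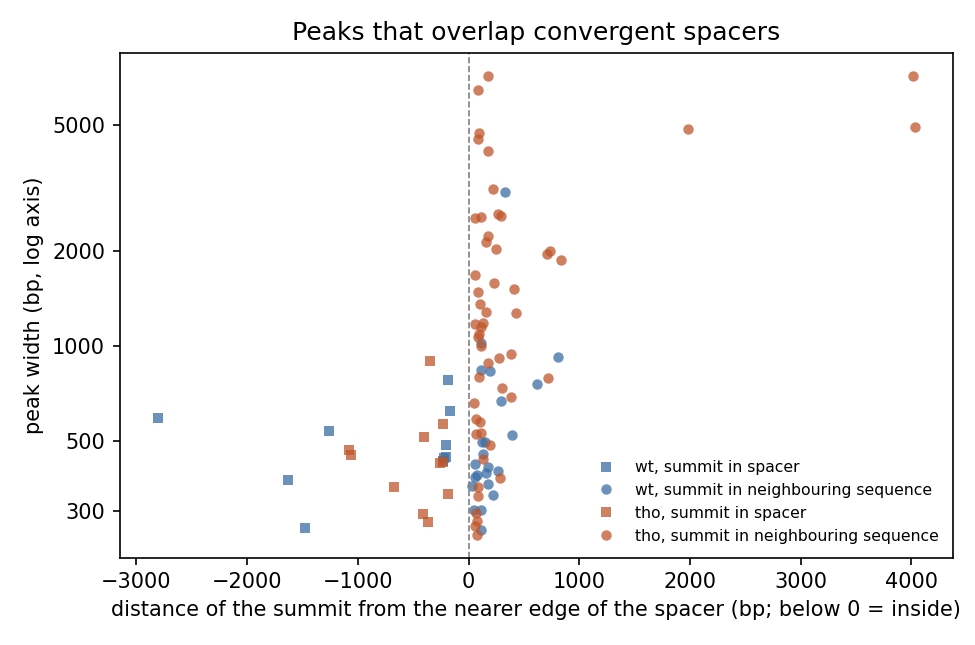
Width (bp, log axis) of each peak that overlaps a convergent spacer against the distance (bp) of its summit from the nearer edge of the spacer, wt in blue and tho in orange; squares, at distances below 0, have their summit inside the spacer and circles outside. Most circles lie within 300 bp of the edge, 19 of 23 in wt and 41 of 53 in tho, and the wide peaks are circles.

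The ends of the convergent genes were therefore counted as such. The last 300 bp of coding sequence on each side of a convergent spacer, 3026 windows in all, held 78 wt summits against 73.3 expected (ratio 1.06, 0.848 to 1.31). The same windows held 74 tho summits against 42.2 expected (1.75, 1.40 to 2.17). The 3′ ends of genes beside a tandem spacer gave a similar tho ratio of 1.68 (1.32 to 2.10), so this was not particular to convergent genes. The first 300 bp of coding sequence gave tho ratios of 0.706 beside divergent and 0.888 beside tandem spacers. Beside the convergent spacers, the ratio varied with the length of the spacer. In wt it was 0.220 (0.0266 to 0.791) beside spacers of 1–100 bp, 0.747 beside 100–200 bp, 1.11 beside 200–400 bp, 2.06 (1.24 to 3.20) beside 400–800 bp and 1.83 beside longer ones. In tho the values were 0.767, 1.07, 2.18 (1.51 to 3.03), 3.21 (1.88 to 5.09) and 1.75 (0.646 to 3.80). Gene ends that close on a spacer of 400–800 bp thus had the highest ratio in both lists, and those beside spacers of 1–100 bp the lowest. The intervals of these classes did not overlap in wt. They did in tho, where the class of 1–100 bp had 4 summits and an interval of 0.209 to 1.95. The intervals of neighbouring classes overlapped in both lists.

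Contacts at both genes of a convergent pair were fewer than contacts at 1 gene only, in both lists. A peak reached the last 300 bp of 1 gene only at 136 pairs in wt and 67 in tho, and of both genes at 13 pairs in wt and 36 in tho. Of these, 4 pairs in wt and 22 in tho were joined by a single peak that ran across the spacer. Peaks on both ends with a gap between them were seen at 9 pairs in wt and 14 in tho. No gene end was reached at 1364 pairs in wt and 1410 in tho. These counts were not made for divergent or tandem pairs and no expected number was computed, so they have no reference.

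The profile over all 1513 loci was lowest within 50 bp of the middle of the spacer in both lists. At the middle of the spacer, 0.595% of the loci were covered by a wt peak and 2.12% by a tho peak. Coverage was higher on both sides, reaching 3.83% and 4.96% at 500 bp to the left and right in wt, and 3.90% and 3.77% at 250 bp in tho. Left and right are set by the chromosome and not by biology, and the wt values differed between them, with 68 left and 94 right gene ends met by a peak. In tho, 66 left and 73 right gene ends were met. The middle of divergent and tandem spacers was covered at 0.327% and 0.495% of loci in wt, and at 4.98% and 4.46% in tho. The low middle in wt was thus shared by all orientations.

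**Figure D4:**
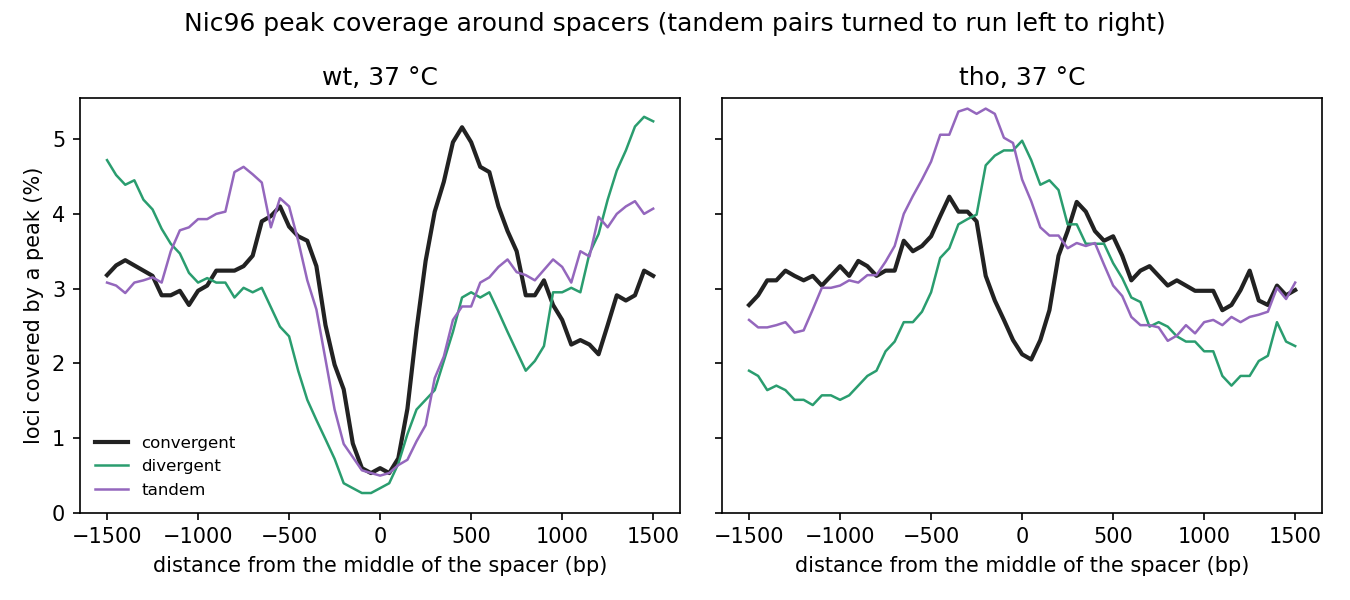
Share of loci (%) covered by a Nic96 peak against the distance (bp) from the middle of the spacer, for convergent (black, 1513 loci), divergent (green) and tandem (purple) spacers, wt left and tho right. The convergent curve is lowest within 50 bp of the middle in both lists, with 0.595% in wt and 2.12% in tho at the middle itself. The divergent and tandem curves are also low there in wt (0.327% and 0.495%), but are at 4.98% and 4.46% in tho.

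In the longer spacers that did hold a summit, the wt summits mostly lay at tRNA genes. Of the 1513 convergent spacers, 45 held a tRNA gene. A wt peak met 8 of these (17.8%, 8.0 to 32.1%) and a tho peak 5 (11.1%, 3.71 to 24.1%). These spacers are long, and uniform placement would meet 7.07 and 4.65 of them, so the share met was near the expected one. Of the 1322 convergent spacers without an annotated feature, 20 were met in wt against 76.6 expected, and 44 in tho against 59.4. The summits were placed differently from the overlaps: 7 of the 10 wt summits in convergent spacers lay in spacers with a tRNA gene, and 5 of them lay within the tRNA gene itself. In tho, 3 of 11 summits lay in such spacers and 1 within the tRNA gene. Among spacers with a tRNA gene, 9 of 86 divergent and 14 of 126 tandem ones also held a wt summit. The 5 tRNA genes with a wt summit in a convergent spacer are those printed above and the tRNA-Ile gene YNCI0005W of the YIL082W-A–AIR1 spacer. YNCI0005W has the same sequence as YNCP0020W. The motif GTTCNANNC was present in 270 of the 275 nuclear tRNA genes (98.2%) and, on either strand, in 139 convergent spacers (9.19%). Of the windows of 75 bases centred within these 5 tRNA genes, between 8.33% and 23.2% occur elsewhere in the genome. All but the tRNA-Ser gene (82 bp) are shorter than such a window, so the windows include flanking sequence. The values therefore do not give the share of a gene itself that is repeated. Reads were kept only if they matched perfectly, and how reads with several matching places were assigned is not given in the sources used here.

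The tRNA-Ile gene between RRP15 and NOC4, both needed for the assembly of ribosomal subunits, held the summit of both lists. The spacer is 689 bp long (chrXVI:819076-819764). The wt peak was 781 bp wide with a fold enrichment of 2.53, and the tho peak 341 bp wide with a fold enrichment of 2.56. Both covered 41.8% of the spacer. Between TAH11, a replication licensing factor, and ANB1, an anaerobic form of the translation factor eIF5A, a wt peak of 488 bp (fold enrichment 2.95) had its summit in the tRNA-Ser gene. In tho the same stretch was reached by a 4930 bp peak that covered all of TAH11 and had its summit 4029 bp from the spacer. The wt peak at the tRNA-Asp gene between MID2, a cell wall stress sensor, and RPS25B, a ribosomal protein gene, had a fold enrichment of 2.82, and no tho peak met that spacer.

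Summits of both lists fell in 3 convergent spacers, of 18 with a summit in either list. Besides RRP15–NOC4, these were HMRA1–GIT1 and GAT1–PAU5. HMRA1 belongs to the silent mating-type cassette, next to a tRNA-Thr gene known in yeast as a barrier to silent chromatin. The wt summit lay 22 bp and the tho summit 80 bp from that tRNA gene, with fold enrichments of 2.63 and 2.35. Between GAT1, a transcription factor of nitrogen regulation, and the seripauperin gene PAU5, peaks of 443 bp in wt and 430 bp in tho had fold enrichments of 1.94 and 1.88. The GAT1–PAU5 spacer of 1732 bp holds no other annotated feature.

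Of the other spacers with a summit, the one between TAR1 and YLR154C-G holds ribosomal DNA, and 88.9% of it is sequence that occurs elsewhere. Its wt peak had a fold enrichment of 1.38 only, with a −log10 q-value of 79.2. The only other wt summit without a tRNA gene in the spacer lay between YGL039W and OCH1, a mannosyltransferase gene, with a fold enrichment of 1.86. In tho, the highest −log10 q-value among peaks centred on a convergent spacer was 50.7, between the permease gene AGP3 and AQY3, with a fold enrichment of 4.16. A second tho peak of 4538 bp covered all of AQY3 and reached 123 bp into the same spacer. Between YOL155W-A and the cell wall mannoprotein gene HPF1, in a spacer of which 57.7% is repeated sequence, a 357 bp tho peak had its summit 676 bp from the nearer gene. Between SPI1, a cell wall protein gene, and UBP3, a ubiquitin protease gene, a tho peak covered 89.4% of the spacer, while the wt peak lay in SPI1 and entered the spacer by 1 bp. Of the 11 tho summits, 4 lay in spacers within 20 kb of a chromosome end, as did 1 of the 10 wt summits.

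Peaks with their summit in a convergent spacer were ordinary in width. Their median width was 466 bp in wt and 430 bp in tho, against 384 and 450 bp for all other peaks. Their median fold enrichment was 1.95 in wt and 2.35 in tho, against 1.76 and 1.89. Their median −log10 q-value was 8.14 in wt and 13.2 in tho, against 2.52 and 6.69. These medians rest on 10 wt and 11 tho peaks, and no difference was tested. None was wider than 1000 bp in either list.

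Spacers beside genes of 4 functional lists were counted as met where a peak reached them by at least 1 bp. Of the 18 convergent spacers flanked by one of 38 genes for heat shock proteins and their cofactors, 4 were met in wt (22.2%, 6.41 to 47.6%) and 7 in tho (38.9%, 17.3 to 64.3%), and 3 of these in both lists. Beside these stand 2.12% and 3.90% of all convergent spacers, a reference that is not matched for spacer length. Of the 6 spacers flanked by a gene of trehalose or glycogen metabolism, 1 was met in wt and 3 in tho. The GSY2–HSP60 spacer, met in tho, is counted here and among the heat shock spacers. Of the 13 flanked by a gene of glycolysis or alcohol metabolism, 0 were met in wt and 3 in tho. Of the 70 flanked by a ribosomal protein gene, 1 was met in wt, MID2–RPS25B with its tRNA gene, and 0 in tho (upper bound 5.13%). These lists were chosen with earlier results of the data known, and no list was tested. The spacers beside MFT1 and NIC96 themselves were met in neither list.

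The widest tho peak over a convergent spacer was at TSL1, which encodes a subunit of the trehalose synthase complex, and ARG81, a regulator of arginine metabolism. This single peak of 7176 bp, with a fold enrichment of 21.81, covered all of TSL1, the 477 bp spacer (chrXIII:73921-74397) and 76.4% of ARG81. Its summit lay in TSL1, 173 bp from the spacer. At its other end the same peak also covered the 34 bp spacer between CAC2, a chromatin assembly factor gene, and CUE4, and its summit was 4014 bp away from there. In wt the only peak at TSL1–ARG81 was 261 bp wide (fold enrichment 2.41) and sat on the 3′ end of ARG81, with its summit 115 bp from the spacer.

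Other tho peaks crossed a spacer while the wt list held a small peak or none. Between STI1, a co-chaperone of Hsp70 and Hsp90, and CIN5, a stress-related transcription factor gene, a tho peak of 2565 bp (fold enrichment 5.42) covered the 710 bp spacer, 58.0% of STI1 and 93.2% of CIN5, with its summit 111 bp inside the end of STI1. The wt peak there was 396 bp wide (fold enrichment 1.78) and lay at the 3′ end of CIN5. Between ALD4, a mitochondrial aldehyde dehydrogenase gene, and GDH1, a glutamate dehydrogenase gene, a tho peak of 6455 bp (fold enrichment 6.47) covered both genes and the 278 bp spacer whole, with its summit 84 bp inside the end of ALD4. No wt peak met that spacer. Between RPN12, a proteasome subunit gene, and the hexokinase gene HXK1, a tho peak of 4749 bp covered the 262 bp spacer, all of RPN12 and 92.8% of HXK1, with its summit 94 bp inside HXK1. At TSL1–ARG81 and at these 3 spacers, the tho summit lay in coding sequence within 200 bp of the spacer.

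**Figure D5:**
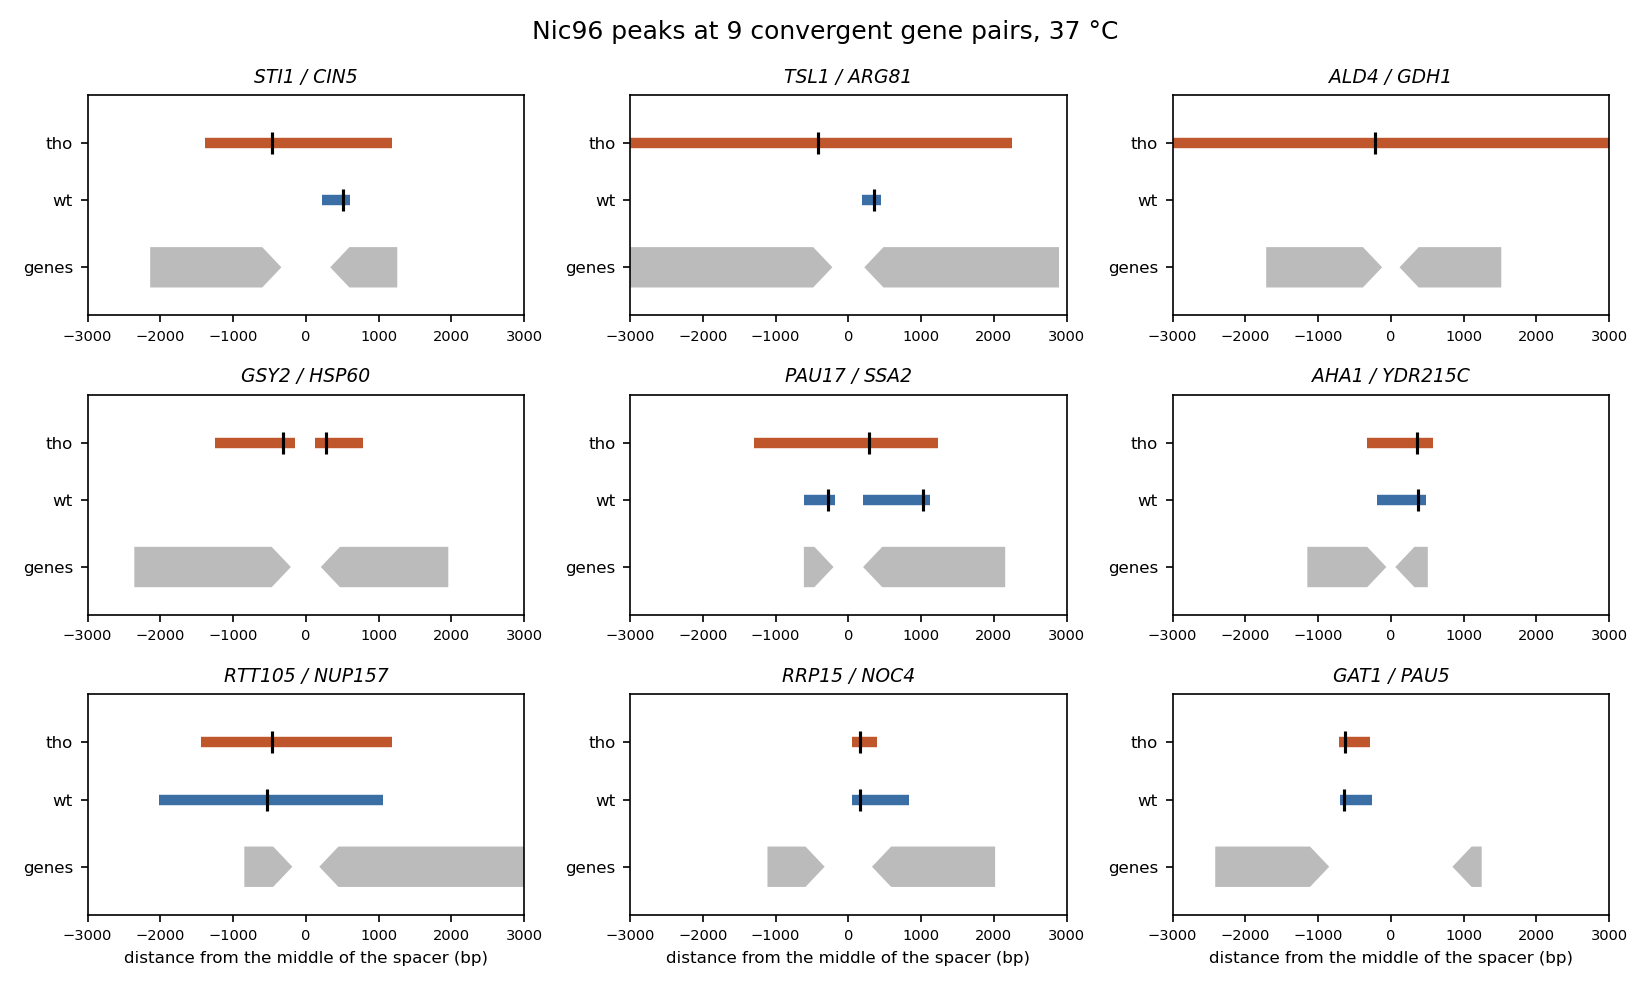
Nic96 peaks that overlap the spacer (bars, wt blue, tho orange, summits as black ticks) at 9 convergent gene pairs, against the distance (bp) from the middle of the spacer; grey arrows are coding sequences and are cut at the edge of the panel. Peaks that do not touch the spacer are not drawn, so an empty track does not mean that the genes had no peak. The tho peaks at STI1–CIN5, TSL1–ARG81, ALD4–GDH1 and PAU17–SSA2 run across the spacer with their summit in a gene, whereas the peaks at RRP15–NOC4 and GAT1–PAU5 have their summit in the spacer in both lists.

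At the cytosolic Hsp70 gene SSA2, whose neighbour PAU17 belongs to the seripauperin family, the wt list had separate peaks of 425 bp over PAU17 and 922 bp over SSA2. They left most of the 444 bp spacer uncovered, with 13.5% of it under a peak. In tho a single peak of 2539 bp joined both genes across the spacer, with a fold enrichment of 1.89, against 1.72 and 1.86 for the wt peaks. The pair of the glycogen synthase gene GSY2 and the mitochondrial chaperonin gene HSP60 showed the opposite layout in tho, with peaks of 1090 bp in GSY2 and 662 bp in HSP60 whose summits lay 95 and 50 bp from the spacer and which covered 38.7% of it. No wt peak met the GSY2–HSP60 spacer. At the glycogen phosphorylase gene GPH1, paired with the kinase gene SGV1, a 1480 bp tho peak (fold enrichment 2.77) covered the 434 bp spacer. Tho peaks also covered the spacers between the cell wall protein genes HSP150 and CIS3 (2228 bp, fold enrichment 2.47) and between MHF1, a DNA repair gene, and the alcohol dehydrogenase gene ADH1 (796 bp, fold enrichment 2.33).

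The widest wt peak over a convergent spacer was at RTT105–NUP157. RTT105 is a chaperone of the single-strand binding complex RPA, and NUP157 encodes an inner ring nucleoporin. The wt peak of 3072 bp (fold enrichment 4.40) and the tho peak of 2621 bp (fold enrichment 11.60) both covered RTT105 and the 409 bp spacer (chrV:367429-367837), with the summit 325 and 266 bp inside RTT105. At AHA1, a co-chaperone of Hsp90, the 161 bp spacer to YDR215C was also covered whole in both lists, by peaks of 669 bp in wt and 915 bp in tho with fold enrichments of 2.97 and 3.30 and summits 291 and 274 bp inside YDR215C. Between ALB1, a ribosome biogenesis gene, and RPE1, a gene of the pentose phosphate pathway, a wt peak of 1027 bp (fold enrichment 2.09) covered the 130 bp spacer, and no tho peak met it. Fold enrichments of wt and tho peaks were set against different untagged libraries and are given side by side only.

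The lists shared some of the spacers met. Peaks of both met 13 convergent spacers, which are 40.6% of those met in wt and 22.0% of those met in tho. Shared overlaps and shared summits were not counted over spacers of all orientations, so these shares describe the convergent spacers without a reference. Peaks of either list met 78 spacers and 1435 were met by neither. The spacers met were longer than the rest, with a median of 628 bp in wt and 373 bp in tho against 224 bp for those met by neither. Their median GC content was 32.4% in wt and 30.8% in tho, against 29.0%. Within 20 kb of a chromosome end lay 18.8% of those met in wt, 10.2% of those met in tho and 3.07% of those met by neither. The part of length and of chromosome position in these values was not tested beyond the length classes given above.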

How the data were processed

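The 6 libraries were mapped to their conditions from the labels, and the peak lists of the wt and tho Nic96-myc libraries at 37 °C were analysed. Reads came from both ends of the fragments. The authors aligned them to sacCer3 (Bowtie2, no mismatch allowed), discarded duplicates (SAMtools) and had MACS2 call narrow peaks in each tagged library, with the untagged strain of the same genotype as control. Fold enrichment in the deposited lists is a ratio of tagged to untagged signal at the summit. MACS2 p-values and q-values were deposited on a −log10 scale, and the deposited score derives from the p-value. No read numbers are given in the sources used here, so the depth is unknown.

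Nuclear peaks with a q-value under 0.05 were used, 993 of 1248 in wt and 571 of 664 in tho, where 37 further peaks lay in mitochondrial DNA. The methods state this threshold, although the deposited lists also hold larger q-values. Starts were converted to count from 1. Expected numbers were computed exactly for peaks placed uniformly within their chromosomes, with the widths kept, and were not simulated. Each expected number of overlapped spacers is the sum over spacers of the chance that at least 1 placed peak meets it. Intervals are exact binomial (Clopper-Pearson) 95% intervals that cover counting only, and peaks or spacers are not replicates of a condition. Calculations used Python 3.11.15 with numpy 2.4.6 and scipy 1.17.1, were tested on simulated data, and plots used matplotlib 3.10.9.

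Named were, for each list, the 5 spacers with the highest −log10 q-value among peaks centred on them, the 3 widest peaks that covered a spacer whole, the spacers with summits of both lists, and up to 12 spacers met by a peak and flanked by a gene of the lists for heat shock, trehalose and glycogen, glycolysis and alcohol, and ribosomal proteins. YGL039W–OCH1 and NAS6–PHO81 were chosen after their values were seen, as were the windows at gene ends. The members, the gene lists and the tests were chosen with earlier results of these data known. Alternatives were all deposited peaks, a q-value under 0.01, coverage of 50% of the spacer, peak midpoints, merging of peaks under 100 bp apart, adjacency by gene start, leaving out spacers near chromosome ends, with tRNA genes or long terminal repeats, of repeated sequence or under 100 bp, and placement over the whole nuclear genome.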

Additional observations from a re-analysis of the deposited data

Results flagged for a closer look

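Convergent spacers of 400–800 bp were overlapped less often than expected in wt, with a ratio of 0.597, and more often in tho, with a ratio of 1.45, so the values of the 2 lists lay on opposite sides of 1. The difference was not tested, and each list comes from 1 library. The exact binomial intervals of the shares behind these ratios, 2.17 to 8.71% in wt and 4.84 to 13.2% in tho, both include the expected shares of 7.86% and 5.73%. In the same length class, divergent spacers had ratios of 0.0659 in wt and 1.44 in tho, and tandem spacers 0.151 and 1.43. Values on opposite sides of 1 were thus not particular to convergent spacers.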

How the results depend on the processing

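The ratio of observed to expected summits in convergent spacers stayed below 1 under all 22 alternatives, between 0.0861 and 0.313 in wt and between 0.319 and 0.768 in tho. The lowest wt value came without spacers that hold a tRNA gene or a long terminal repeat, which left 3 summits (0.302% of the peaks) and a ratio of 0.0861. The highest tho value came with peak midpoints in place of summits, with 19 midpoints and an interval of 0.465 to 1.19 that includes 1. Requiring at least 50% of the spacer to be covered left 6 spacers in wt (0.397%) and 27 in tho (1.78%). For the last 300 bp of convergent genes, alternatives chosen after seeing the data gave a tho ratio of 1.35 with windows of 500 bp and 2.04 with windows of 200 bp. Over these alternatives wt ranged from 1.000 to 1.21, and with windows of 500 bp its interval of 1.03 to 1.41 no longer included 1. Leaving out the spacer with the ribosomal DNA, also chosen afterwards, gave 0.212 in wt and 0.451 in tho. Of 74 alternative values, 69 lay within the counting interval of the main value and 5 outside it. A change of direction could be recorded only for ratios whose main interval excluded 1, and 0 were recorded. The shares and the wt ratio at gene ends could not show one. Merging left the 993 wt and 571 tho peaks as they were, so it tested nothing. Adjacency by gene start changed no count of summits or of spacers met. No paired analysis was possible because each condition has 1 library. The depth is unknown, and how it limits the counts could not be measured.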
